A study of Mus musculus with 5 samples.

Results

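Eph receptors and their ligands, the ephrins, were examined in 5 RNA-Seq libraries of bone marrow–derived macrophages (BMDMs). The set holds 9 genes of the 17058 listed in these libraries, 5 receptors (*Epha2*, *Epha4*, *Ephb2*, *Ephb4*, and *Ephb6*) and 4 ligands (*Efna1*, *Efna4*, *Efnb1*, and *Efnb2*). The set was chosen by its measured values, because *Epha2* is lower and *Epha4* higher in 1 of the 2 groups, so the differences of the 9 genes between the groups are a description, and no *P* value is given for them. All macrophages came from BALB/c mice, which the methods give as 6 to 12 weeks old, and were grown with M-CSF. They were then cocultured for 48 hours with 4T1 cells, a mouse mammary carcinoma line, that were WT (2 libraries) or *Adam17*-/- (3 libraries). ADAM17 is a membrane protease that sheds EGFR ligands, and it was deleted by CRISPR/Cas9 in the cancer cells only. The 2 cell types grew on opposite sides of a culture insert, and the sequenced RNA was taken from the macrophage side. All 3 *Adam17*-/- libraries carry the same knock-out designation, 2.8, and the methods describe expansion of single sorted cells, so that what the deletion did and what else marks that line cannot be told apart.

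Eph receptors are the largest family of receptor tyrosine kinases. Their ligands stay on the cell surface, the A ephrins through a lipid anchor and the B ephrins through a transmembrane segment, so that signals pass between touching cells in both directions, forward through the receptor and in reverse through the ephrin. The system is known for repulsion, adhesion, and boundary formation. EphA2 is known from epithelial and carcinoma cells, where ephrin-A1 is its main ligand, EphA4 binds both A and B ephrins, and EphB4 with ephrin-B2 separates veins from arteries. EphB6 lacks kinase activity.

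The libraries held 14658694 to 20788373 expected counts, and a gene at 3 counts, taken as the floor, lies at 0.157 to 0.197 CPM (counts scaled by TMM factors and library size). Of 8 macrophage markers, all 8 were abundant in each library, with a summed level of 28416 and 27659 CPM in the WT cocultures and 17945 to 19906 CPM in the *Adam17*-/- cocultures, and 6 of them were lower (adjusted *P* up to 0.05, edgeR). Markers of other cells were also read. Of 11 epithelial markers, 10 were under the filter on low counts, with 11 to 29 counts per library over these 10 genes together, and *Epcam* had 1 count in 1 library. Neutrophil markers were higher in 7 of 9 genes (322 and 392 CPM summed in the WT cocultures, 1125 to 1305 CPM in the *Adam17*-/- cocultures), and dendritic cell markers in 5 of 8 (57.6 and 76.8 CPM against 88.7 to 104 CPM). Of 8 megakaryocyte and platelet markers, 5 were higher and *Pf4* and *Ppbp* lower. The other 6 summed to at most 54.9 CPM in the WT cocultures and 80.9 to 136 CPM in the *Adam17*-/- cocultures. Stromal markers were higher in 2 of 8 genes. All 8 summed to 35.1 and 41.9 CPM in the WT cocultures and 40.9, 62.9, and 121 CPM in *Adam17*-/- replicates 1, 2, and 3. The largest part in replicate 3 was *Col1a1* (66.3 CPM), which did not pass (adjusted *P* = 0.166, edgeR). Of 9 endothelial markers, *Vwf* was higher, *Kdr* and *Cdh5* were lower, and *Robo4* had no count in any library.

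*Epha2* (Entrez Gene 13836, chr4:141301221-141329384, plus strand, GRCm38.p6) was the most abundant Eph receptor of macrophages cocultured with WT 4T1 cells, with 621 and 463 counts, or 32.5 and 25.1 CPM, in WT replicates 1 and 2. The *Adam17*-/- replicates 1, 2, and 3 held 108, 57, and 185 counts, or 5.91, 3.75, and 9.80 CPM. The groups did not overlap, and the highest *Adam17*-/- library stayed well under the lower WT library. Means were 28.8 ± 5.26 CPM (SD, n = 2) and 6.49 ± 3.06 CPM (SD, n = 3). This is 4.37-fold lower, or -2.13 on the log2 scale with a standard error of 0.276. Of the 12576 genes that passed the filter on low counts, 10 had a more negative log2 fold change. These are bulk samples, in which fewer cells that carry a transcript and less of it per cell cannot be told apart. The epithelial markers, whose cells are the best known source of *Epha2*, summed to 13.4 and 11.5 CPM after WT coculture and 12.1 to 14.3 CPM after *Adam17*-/- coculture, most of it from *Cdh1*. Markers that were lower together with *Epha2* were 6 of 8 macrophage genes, the endothelial genes *Kdr* and *Cdh5*, and the megakaryocyte genes *Pf4* and *Ppbp*. The log2 fold changes were -0.74 for *Kdr*, -1.10 for *Cdh5*, -1.065 for *Pf4*, and -1.55 for *Ppbp*. In the same lists the endothelial gene *Vwf* (0.43) and 5 of 8 megakaryocyte genes were higher. The part of any of these cells in the level of *Epha2* was not tested.

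*Epha4* (Entrez Gene 13838, chr1:77367182-77515107, minus strand) moved the other way from a low level. It had 37 and 54 counts (1.94 and 2.92 CPM) in WT replicates 1 and 2 and 140, 108, and 170 counts (7.66, 7.10, and 9.0 CPM) in *Adam17*-/- replicates 1, 2, and 3. Again no libraries of the 2 groups overlapped. Means were 2.43 ± 0.697 CPM (SD, n = 2) and 7.92 ± 0.975 CPM (SD, n = 3). The second is 3.27-fold higher, or 1.71 on the log2 scale with a standard error of 0.213, and 110 of the tested genes had a more positive value. EphA4 has been described on platelets and in stromal and neural cells. Some markers of other cells given above were also higher in the *Adam17*-/- cocultures (neutrophil 7 of 9, dendritic cell 5 of 8, megakaryocyte 5 of 8 with 2 lower, stromal 2 of 8), and their part in the level of *Epha4* was not tested. Summed over the whole list, megakaryocyte markers were lower, at 2198 and 2334 CPM against 1108 to 1226 CPM, most of it from *Pf4* and *Ppbp*. Under the 13 alternatives the log2 fold change was -2.58 to -1.57 for *Epha2* and 0.76 to 2.03 for *Epha4*. Both were smallest in size on the log2(FPKM + 1) scale. These fits use the libraries on which the set was chosen, so the unchanged signs are no further evidence.

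Both receptors had all their reads on a single RefSeq transcript, of 3948 bases for *Epha2* and 6328 bases for *Epha4*. To show the regulatory sequence of the pair that differs in direction, the 250 bases before each RefSeq start are given 5′ to 3′ on the gene's strand, from the same build. The window of *Epha2* is chr4:141300971-141301220 on the plus strand and that of *Epha4* is chr1:77515089-77515338 on the minus strand. The *Epha4* window is counted from a start inside the gene span given above, which ends at 77515107, so window and span overlap. Capitals mark matches to the motifs named after them.
Epha2: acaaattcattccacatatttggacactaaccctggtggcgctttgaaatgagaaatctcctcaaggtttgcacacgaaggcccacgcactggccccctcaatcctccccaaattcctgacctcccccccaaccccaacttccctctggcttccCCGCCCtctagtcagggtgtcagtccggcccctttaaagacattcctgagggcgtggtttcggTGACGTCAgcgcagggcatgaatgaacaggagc
Epha4: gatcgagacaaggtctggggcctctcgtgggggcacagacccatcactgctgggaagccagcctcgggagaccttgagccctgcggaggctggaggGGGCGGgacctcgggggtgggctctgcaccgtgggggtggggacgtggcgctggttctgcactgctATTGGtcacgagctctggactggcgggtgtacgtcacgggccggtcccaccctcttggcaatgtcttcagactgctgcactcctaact

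5 motifs were searched on both strands, and none overlapped another. The cAMP response element TGACGTCA was found in the *Epha2* window, 33 to 26 bases before the start, and in 1.55% of 32851 windows of the same length. The CCAAT box was found in the *Epha4* window, read on the opposite strand 88 to 84 bases before the start, and in 33.8% of all windows. A GC box (GGGCGG) was found in both, as in 32.7% of windows. The AP-1 site TGANTCA (6.75% of windows) and the ETS site CCGGAAG (6.91%) were found in neither. The G and C content was 55.6% for *Epha2* and 66.0% for *Epha4*, against a median of 52.4% over all windows. These matches describe the letters of the windows, and no binding was measured.

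Of the other receptors, *Ephb6* had 9.82 and 6 expected counts after WT coculture and 5.98, 0.99, and 8 after *Adam17*-/- coculture, or 0.419 ± 0.134 (SD, n = 2) and 0.272 ± 0.186 CPM (SD, n = 3). The groups overlapped. Its counts were assigned almost whole to 1 of 2 transcripts that differ by a few bases in length, to one of them in WT replicate 2 and to the other in the remaining libraries. *Ephb4* had 5 counts in WT replicate 1, 0 in WT replicate 2, and 1, 2, and 2 in the *Adam17*-/- libraries. *Ephb2*, a receptor of B ephrins, had 0 to 2.46 expected counts and was at or under the floor in every library. None of these 3 receptors passed the filter, so they were not tested. The counts of *Ephb2* did not overlap between the groups (0 and 1.47 against 1.53 to 2.46), all under the floor.

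*Efnb1* (Entrez Gene 13641, chrX:99136061-99149022, plus strand), a transmembrane ligand, was the most abundant ephrin, with 166 and 106 counts (8.69 and 5.74 CPM) in WT replicates 1 and 2 and 84, 82, and 111 counts (4.60, 5.39, and 5.88 CPM) in the *Adam17*-/- replicates. WT replicate 1 stood above the other 4 libraries, and WT replicate 2 lay among the *Adam17*-/- libraries. Its log2 fold change of -0.45 (standard error 0.203) became -0.12 without WT replicate 1. *Efnb2*, the transmembrane ligand of EphB4, had 24 and 12 counts after WT coculture and 15, 30, and 35 after *Adam17*-/- coculture, or 0.953 ± 0.429 (SD, n = 2) and 1.55 ± 0.634 CPM (SD, n = 3). Its groups overlapped as well, and its log2 fold change of 0.68 (standard error 0.442) ran from 0.29 without WT replicate 2 to 1.23 without WT replicate 1.

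The A ephrins were low. *Efna1*, which encodes the ligand of EphA2, had 11 and 8 counts in WT replicates 1 and 2 and 6, 6, and 14 in the other replicates. Its means of 0.504 ± 0.101 (SD, n = 2) and 0.488 ± 0.222 CPM (SD, n = 3) were close and its groups overlapped. It too was assigned to 1 of 2 transcripts in each library, of 1447 bases in WT replicate 2 and *Adam17*-/- replicate 1 and of 1483 bases in the others. *Efna4* had 1 count in 4 libraries and none in WT replicate 2. *Efna1*, *Efna3*, and *Efna4* stand in a row on the minus strand of chromosome 3 (89271730 to 89280951, 89313899 to 89322939, and 89333393 to 89338028), and *Efna3* had at most 2 counts, so that *Efna1* was the 1 gene of this cluster over the floor.

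**Figure D1:**
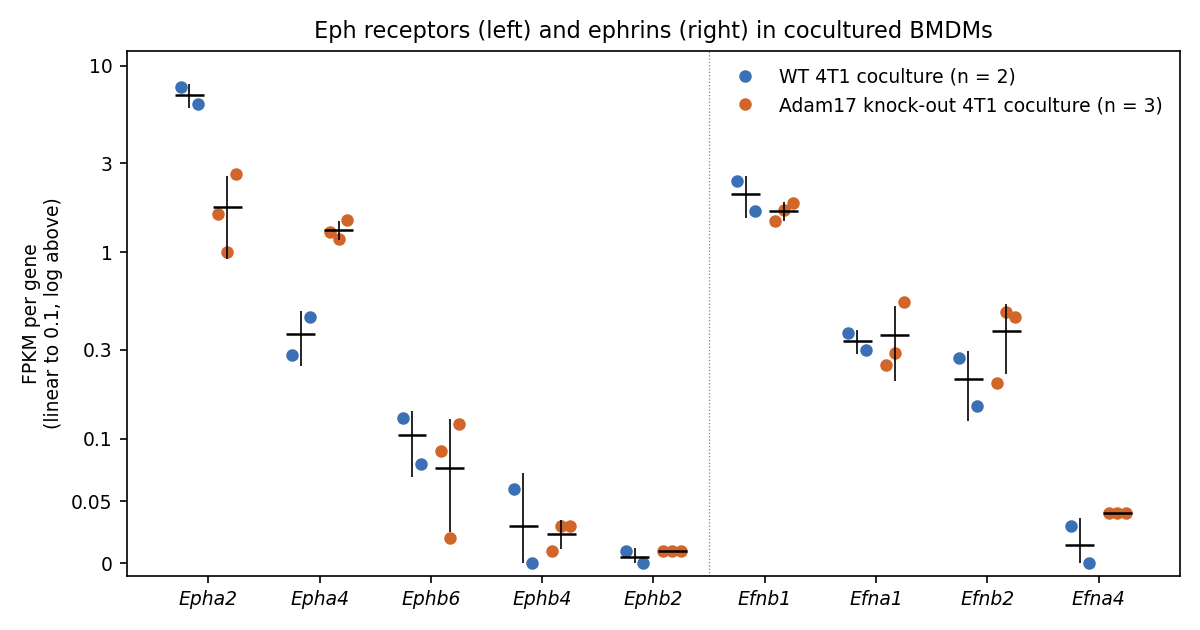
FPKM of each member (y axis, linear up to 0.1 and logarithmic above) in the libraries of the WT (blue, n = 2) and *Adam17*-/- (orange, n = 3) cocultures, with horizontal bars for the mean and vertical bars for the SD. *Epha2* lies between 6.20 and 7.69 in the WT libraries and from 1.00 to 2.61 in the others, *Epha4* lies between 0.28 and 0.45 against 1.18 to 1.49, and the groups of every other member that passed the filter overlap.

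Of the 9 members, 4 passed the filter on low counts (*Epha2*, *Epha4*, *Efnb1*, and *Efnb2*) and 5 did not. With both an adjusted *P* up to 0.05 and a log2 fold change of at least 1 in size, 1 member was called higher, where 3.36% of all genes tested were, and 1 lower, where 0.867% were. Of the 4 members that passed the filter, 1 lay above the WT libraries in every *Adam17*-/- library (28.3% of all genes tested) and 1 below (29.7%). Since the set was chosen on this comparison, nothing is read from these counts. Over all genes the calls were 422 higher and 109 lower, and 639 and 57 with scaling by library size alone.

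Levels can be compared between genes as FPKM, which accounts for transcript length. In the WT cocultures the order of the members was *Epha2* (6.95 ± 1.05, SD, n = 2), *Efnb1* (2.04 ± 0.523), *Epha4* (0.365 ± 0.120), *Efna1* (0.335 ± 0.0495), *Efnb2* (0.210 ± 0.0849), and *Ephb6* (0.105 ± 0.0354), with *Ephb4*, *Efna4*, and *Ephb2* at 0.03 or less. *Epha4* and *Efna1* overlapped, and *Epha2* and *Efnb1* stood apart from each other and from the rest. In the *Adam17*-/- cocultures, *Epha2* (1.74 ± 0.814, SD, n = 3), *Efnb1* (1.66 ± 0.191), and *Epha4* (1.32 ± 0.158) came close. The libraries of *Epha2* overlapped those of both others, and *Efnb1* was above *Epha4* in each library, though the lowest *Efnb1* value (1.46) lay under the highest of *Epha4* (1.49). They were followed by *Efnb2* (0.377 ± 0.154) and *Efna1* (0.360 ± 0.157), which overlapped, and *Ephb6* (0.0767 ± 0.0513). The mean of *Epha2* in the WT cocultures was above that of 44.8% of the genes tested, and in the *Adam17*-/- cocultures above 18.5%. For *Epha4* these shares were 7.64% and 15.5%, and for *Efnb1* 23.3% and 18.2%.

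The 14 Eph receptor genes together summed to 8.71 and 7.27 FPKM in WT replicates 1 and 2 and to 3.52, 2.71, and 4.85 FPKM in *Adam17*-/- replicates 1, 2, and 3. *Epha2* made up 88.3% and 85.3% of this sum after WT coculture and 45.5%, 36.9%, and 53.8% after *Adam17*-/- coculture. *Epha4* made up 3.21% and 6.19%, and then 36.4%, 43.5%, and 30.7%. Thus the FPKM of *Epha2* was 27.5 and 13.8 times that of *Epha4* in the WT libraries and 1.25, 0.847, and 1.75 times in the others, and in *Adam17*-/- replicate 2 *Epha4* was the more abundant. The 8 ephrin genes summed to 3.78 and 2.52 FPKM in the WT libraries and 2.18, 2.94, and 3.71 FPKM in the others, so these groups overlapped. *Efnb1* made up 49.6% to 67.0% of the ephrin sum over the 5 libraries.

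**Figure D2:**
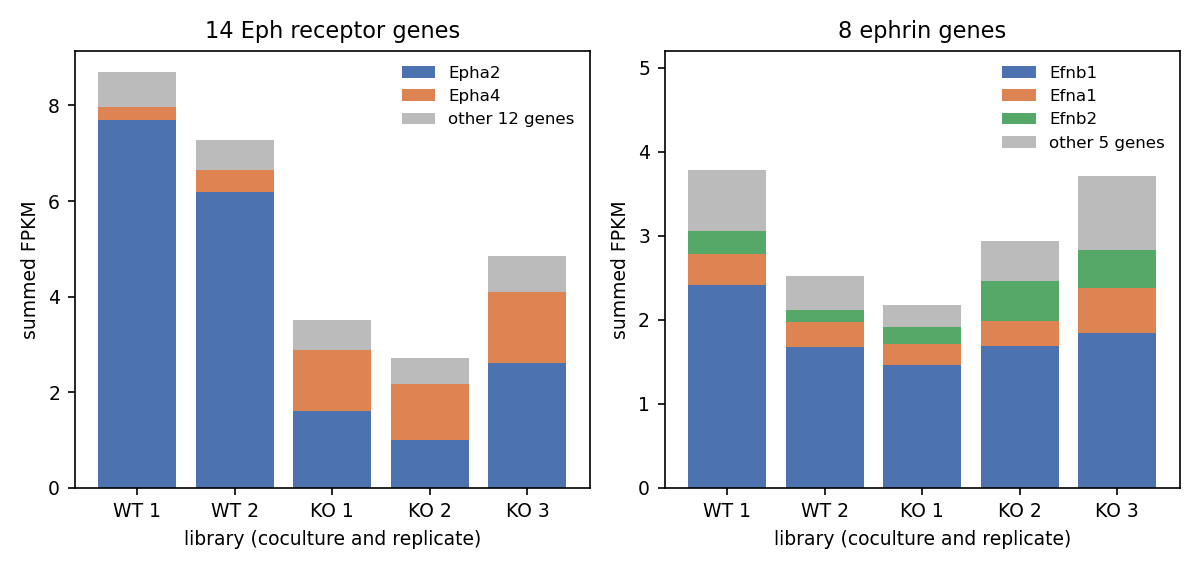
Summed FPKM (y axis) of the 14 Eph receptor genes (left) and the 8 ephrin genes (right) in each library (x axis, WT and knock-out coculture with replicate number). Colors mark *Epha2* and *Epha4* on the left and *Efnb1*, *Efna1*, and *Efnb2* on the right. Gray holds the rest, among them *Efna2* (0.46 and 0.32 FPKM in the WT libraries and 0.11, 0.13, and 0.53 FPKM in the others). *Efna2* was above *Efna1* in the WT libraries and below it in the others. The receptor sum is 7.27 or more in both WT libraries and 4.85 or less in the others, with *Epha4* taking a larger part, whereas the ephrin sums overlap.

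Of the 22 genes of the family, 13 are not members. 9 of these had a count in some library, and 4 receptors (*Epha5*, *Epha6*, *Epha8*, and *Ephb1*) had none. Only *Epha1*, *Ephb3*, *Efna2*, and *Efnb3* passed the filter, and 0 of the 4 passed an adjusted *P* of 0.05 in edgeR, with 0 also at an unadjusted *P* under 0.05 and 0 in DESeq2 and in both limma fits. *Efna2*, which encodes an A ephrin, had 20 and 13 counts in WT replicates 1 and 2 and 4, 4, and 20 in *Adam17*-/- replicates 1, 2, and 3 (log2 fold change -0.72, adjusted *P* = 0.384, edgeR). Its *Adam17*-/- replicate 3 thus lay with the WT libraries. Without that library its log2 fold change was -1.82 (adjusted *P* = 0.0430, edgeR), and the replicate block gave -1.85 (adjusted *P* = 0.0433, edgeR). No WT library has the number of replicate 3, so the block also takes that library out of the comparison. *Ephb3*, a receptor of B ephrins, had 21 and 16 counts against 9, 11, and 14 (log2 fold change -0.59, adjusted *P* = 0.239, edgeR). Its groups do not overlap, and the *Adam17*-/- libraries lay below in this way in 29.7% of all genes tested. *Efnb3* had 5 to 14 counts in the 5 libraries. *Epha1* had 19 and 19 counts against 22, 11, and 20, a log2 fold change of -0.01 (standard error 0.339).

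The spread within a group was not used to choose the set. *Epha2* varied among the *Adam17*-/- libraries by more than counting error. Its exact Poisson 95% intervals, which cover counting error only, were 4.85 to 7.14 CPM in replicate 1, 2.84 to 4.86 CPM in replicate 2, and 8.44 to 11.3 CPM in replicate 3, so that replicate 3 stood apart. The coefficient of variation was 47.2%, where 2577 genes with a mean within a factor of 2 of it had a median of 9.78% and 0.543% of them had a larger value. *Epha4* varied by 12.3% (median 8.98% over 2791 genes of like level), and its 3 intervals overlapped. Without *Adam17*-/- replicate 3 the log2 fold change of *Epha2* was -2.54. The WT libraries differed too, with *Epha2* intervals of 30.0 to 35.2 and 22.8 to 27.4 CPM. Over all genes this pair was the most unlike of the pairs within a group, with a chi-square per degree of freedom of 25.7 against 5.22 to 6.32 between *Adam17*-/- libraries. Among the *Adam17*-/- libraries, replicate 3 had the highest level of *Epha2*. It was also highest for *Epha4*, *Ephb6*, *Efna1*, and *Efnb1*, but their intervals overlapped between the replicates. *Efnb2*, *Ephb4*, and *Efna4* were highest in replicate 2 and *Ephb2* in replicate 1. The summed stromal, macrophage, endothelial, and megakaryocyte markers were highest in replicate 3 and the epithelial markers in replicate 1. The summed neutrophil and dendritic cell markers were lowest in replicate 3. The part of these markers in the spread of *Epha2* was not tested.

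The genes nearest to each receptor over the 5 libraries were found by the Euclidean distance of log2 CPM, centered on each gene's mean, among 12575 genes. Nearest to *Epha2* were *Dmpk*, a serine/threonine kinase gene (distance 0.393), *Ccnd1*, which encodes cyclin D1 (0.512), and *Nid2*, which encodes the basement membrane protein nidogen-2 (0.548), where the median distance was 2.66. The distance includes the difference between the groups, so the likeness of these genes to *Epha2* describes how they were picked. *Dmpk*, for example, had 123 and 96.9 CPM with WT and 25.9, 20.2, and 45.9 CPM with *Adam17*-/- 4T1 cells. Nearest to *Epha4* were *Adm*, the gene of the peptide adrenomedullin (0.192), *Tmeff1* (0.287), and *Tfr2*, which encodes transferrin receptor 2 (0.289), where the median distance was 1.92.

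*EPHA2* and *EPHA4* are both part of the MAPK pathway activity score, a short list of transcripts used as a readout of ERK signaling, a pathway downstream of EGFR. The other 8 genes of that score were therefore read beside them. All 6 that were tested fell, where 16.8% of all genes tested were lower and 14.9% higher by adjusted *P* alone, and their median log2 fold change was -1.04 against 0.01 over all genes. *Ccnd1* went from a WT mean of 113 ± 28.1 CPM (SD, n = 2) to 22.0 ± 5.77 CPM (SD, n = 3), at -2.36 ± 0.197 (standard error) on the log2 scale with an adjusted *P* = 0.000199 (edgeR). *Dusp4* and *Dusp6*, which encode phosphatases that act on ERK and related kinases, fell by 1.24 (adjusted *P* = 0.00103) and 0.87 (adjusted *P* = 0.000381) on the log2 scale. *Spry2*, a feedback inhibitor of receptor tyrosine kinases, fell by 0.81 (adjusted *P* = 0.000652), *Phlda1* by 1.14 (adjusted *P* = 0.000866), and *Etv5*, an ETS family transcription factor, by 0.94 (adjusted *P* = 0.000271). *Spry4* and *Etv4* had at most 8 counts and were not tested. *Epha2* thus lay on the side of the 6 genes and *Epha4* on the other. The 6 genes passed under all 13 alternatives. The macrophage markers were also lower in 6 of 8 genes (median log2 fold change -0.59) and the neutrophil markers higher in 7 of 9, and their part in the level of the 6 genes was not tested.

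**Figure D3:**
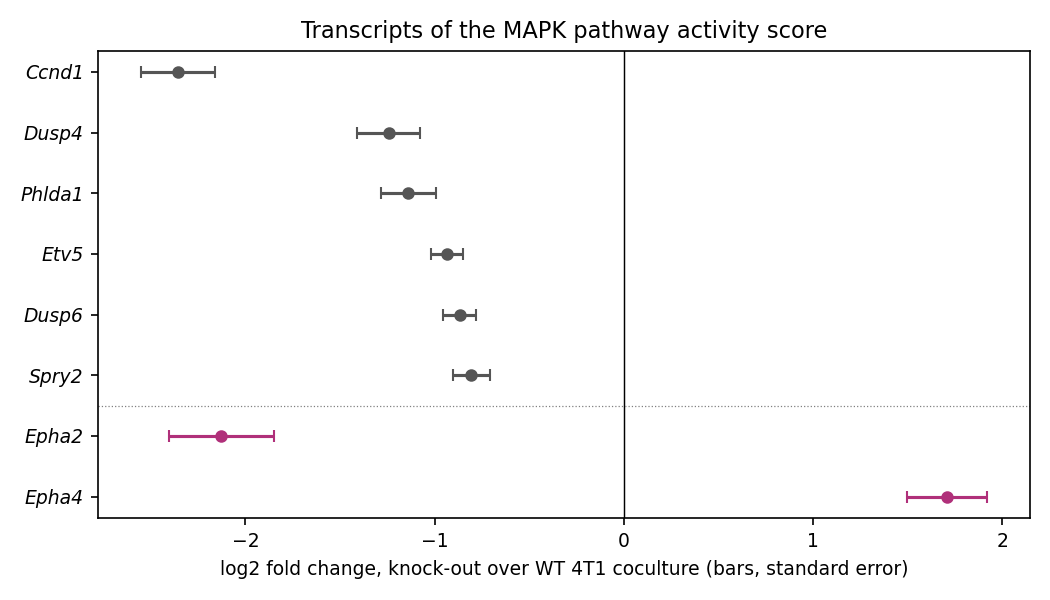
Log2 fold change (x axis, *Adam17*-/- over WT coculture) with standard errors for the 6 tested genes of the MAPK pathway activity score and, under the dotted line, *Epha2* and *Epha4*. The 6 genes lie between -2.36 and -0.81 and *Epha2* at -2.13, while *Epha4*, at 1.71, is the 1 transcript on the right of zero.

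The wider pathway was read from 4 lists of 58 genes that are not members, of which 52 were tested. By adjusted *P* alone, 3 were higher and 15 lower, and 34 passed in neither direction, against the same 14.9% and 16.8% of all genes. The median log2 fold change was -0.15. 1 of the 52, in a list whose genes are not reported singly here, was also past a log2 fold change of 1. Without *Adam17*-/- replicate 1, 2, or 3 the lower genes numbered 6, 8, and 8, and without WT replicate 1 or 2 they numbered 19 and 22. Without WT replicate 2 there were 7 higher. When libraries were scaled by size only, which moved the median of all genes to 0.16, 4 were higher and 6 lower.

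Of 23 adaptors and kinases that bind active Eph receptors, 22 were tested, 2 were higher, and 6 were lower. *Src*, a kinase engaged by Eph receptors, rose by 0.41 on the log2 scale (adjusted *P* = 0.00536, edgeR), with means of 78.7 ± 2.61 (SD, n = 2) and 105 ± 2.36 CPM (SD, n = 3). *Rasa1*, the gene of a Ras GTPase activating protein, rose by 0.43 on the log2 scale (adjusted *P* = 0.0176). *Fyn*, a Src family kinase, fell by 0.48 (adjusted *P* = 0.0152), and *Ptk2*, which encodes focal adhesion kinase, fell by 0.50 (adjusted *P* = 0.0140).

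Among partners of the B ephrins in reverse signaling, 5 of 7 genes were tested and *Rgs3*, a regulator of G protein signaling, was the 1 that passed, falling by 0.44 on the log2 scale (adjusted *P* = 0.0295, edgeR). The last list held proteases, γ-secretase subunits, and phosphatases that act on Eph receptors and ephrins, of which 11 of 12 were tested, 5 fell, and 0 rose. *Mmp14*, a membrane metalloprotease that can cleave EphA2, fell by 0.49 on the log2 scale (adjusted *P* = 0.00464, edgeR), with means of 1211 ± 118 (SD, n = 2) and 865 ± 40.3 CPM (SD, n = 3). *Ncstn*, which encodes the γ-secretase subunit nicastrin, fell by 0.37 on the log2 scale (adjusted *P* = 0.00916). *Adam17* of the macrophages, in which the gene was not deleted, fell by 0.32 (adjusted *P* = 0.0129), from 198 and 200 CPM to 152 to 164 CPM. Of the pathway genes named here, *Mmp14* passed under all 13 alternatives, whereas *Rgs3* lost the call under 10 of them, *Adam17* under 7, *Ptk2* under 6, *Fyn* under 5, *Rasa1* and *Ncstn* under 3 each, and *Src* under 1.

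**Figure D4:**
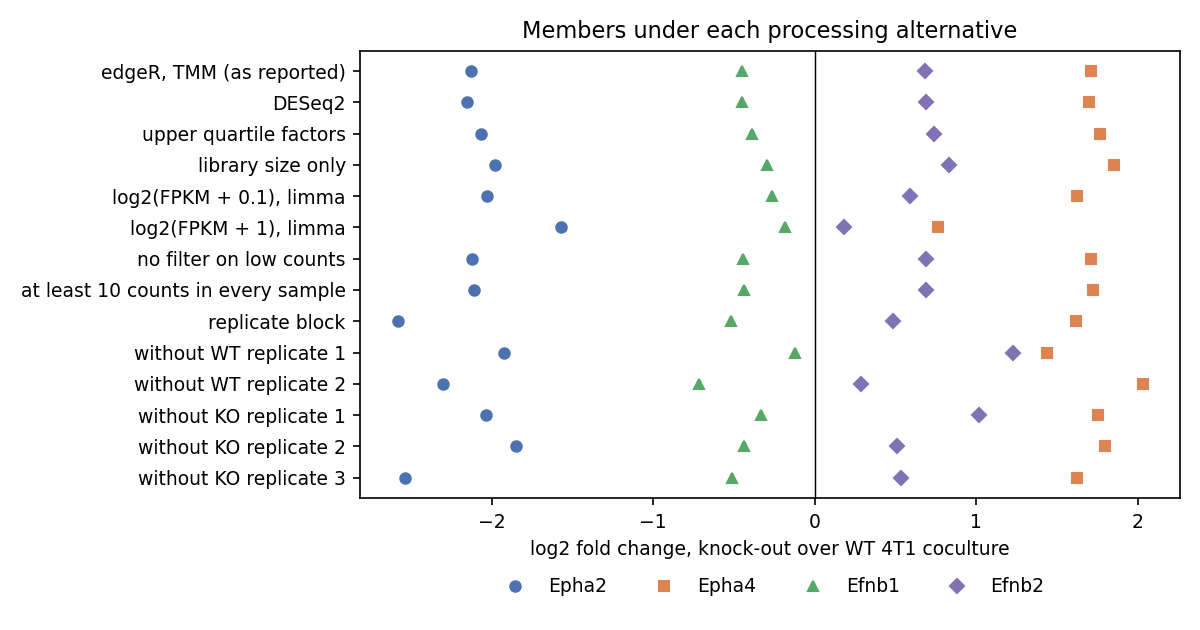
Log2 fold change (x axis, *Adam17*-/- over WT coculture) of the 4 members that passed the filter under the fit as reported and each of 13 alternatives (y axis). *Epha2* stays between -2.58 and -1.57 and *Epha4* between 0.76 and 2.03, while *Efnb1* runs from -0.72 to -0.12 and *Efnb2* from 0.18 to 1.23.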

How the data were processed

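The 5 BMDM samples were grouped by their labels (WT coculture, n = 2, and *Adam17*-/- coculture, n = 3). The labels do not say whether replicates were separate cultures, so *P* values measure the spread between these samples. The authors sequenced paired-end libraries on a BGISEQ-500, aligned reads to GRCm38, and deposited per RefSeq transcript an expected count and an FPKM. Per the labels the tools were Bowtie2, RSEM, and DESeq2, with versions not given in the sources used here. No listed transcript has an FPKM under 0.01, and unlisted ones were taken as 0. The sources used here do not say which gene got reads shared by overlapping or antisense genes.

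Expected counts were summed per gene, rounded, and tested in edgeR 4.0.16 (R 4.3.3) with TMM factors, filterByExpr, glmQLFTest, and Benjamini-Hochberg adjustment over 12576 genes. Symbols came from RefSeq (GRCm38.p6) and matched 17015 of 17058 gene IDs, and promoter sequences came from the same source. Log2 CPM used a prior count of 2. The alternatives were limma 3.58.1 on log2(FPKM + 0.1) and log2(FPKM + 1), DESeq2 1.42.0, scaling by upper quartile or by library size alone, no filter or 10 counts in every sample, the replicate number as a block, and each replicate left out. The scripts were tested on simulated data. The members and gene lists were chosen with earlier results of these data known. Named genes are all members, all genes of the MAPK score, the 2 largest passing changes per direction in 3 of the 4 pathway lists, *Adam17*, and the 3 nearest genes. The genes of the other list are counted in the pathway totals and are not reported singly here. The marker genes and *Dmpk* as the example among the nearest genes were picked after their values were seen. Amino acid sequences were not used here.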

Additional observations from a re-analysis of the deposited data

How the results depend on the processing

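The fit as reported called 531 genes, the fit on the log2(FPKM + 1) scale, whose pseudocount shrinks low genes, called 150, and fits with a replicate left out called 435 to 625. Of calls, 79.5% were higher, and 91.8% with library size only and 90.7% on the log2(FPKM + 0.1) scale. The 15 lower pathway genes were 6 when scaled by library size alone and 5 in either fit to FPKM, settings that moved the median of all genes upward, and 6 to 22 with a replicate left out. The 3 higher pathway genes became 2 to 7 with a replicate left out. With the replicate block, 471 genes were called and 7 pathway genes were lower. The labels do not say whether a shared number pairs samples. Same-numbered libraries deviated with correlations of -0.124 and -0.050 over the genes tested. The deviations of the 2 WT libraries mirror each other, so these correlations cannot show whether the samples were paired. A fit without a WT replicate assumes that the lone library varies like the other group. No MAPK score gene or named pathway gene changed direction under the 13 alternatives. Neither did a tested member, but the members were chosen on this comparison in the same libraries. The order of the 9 members by WT level was the same as CPM per kilobase. Depth limits *Ephb2*, *Ephb4*, *Ephb6*, *Efna1*, and *Efna4*.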
